A study of Mus musculus with 8 samples.

Results

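The platelet-derived growth factor (PDGF) genes described here are the ligand genes Pdgfa, Pdgfb, Pdgfc and Pdgfd and the receptor genes Pdgfra and Pdgfrb. They were taken by gene name from the deposited count and FPKM tables (FPKM: fragments scaled to gene length and library size), 6 of the 54532 genes listed. All 6 were among the 14723 genes that passed a filter on low counts. In the TSP-4 plasmid group, mouse cardiac fibroblasts of the C57BL/6 strain at passage 2 were transfected with pAAV.CMV.SV40.THBS4-HA.SV40(polyA), a plasmid in which the CMV promoter drives HA-tagged murine Thbs4, the gene of the matricellular protein thrombospondin-4 (TSP-4). In the empty plasmid group the same kind of cells received pAAV-CA, which by its name is a different construct, and the groups may therefore differ in more than Thbs4. Both groups had 12 h of standard medium and 24 h without serum before RNA collection. Each group held 4 poly(A) RNA libraries lettered A to D, and the labels do not say whether these came from separate animals or cultures or what a letter marks. The p-values therefore measure the spread between these libraries, which may be technical.

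PDGF ligands are secreted dimers that act as growth and migration signals for mesenchymal cells such as fibroblasts, pericytes and smooth muscle cells. PDGF-A and PDGF-B are cut to their active form inside the cell, whereas PDGF-C and PDGF-D are secreted as latent proteins whose CUB domain must be removed outside the cell. The receptor PDGFR-alpha, a common marker of resident cardiac fibroblasts, binds A, B and C chains. PDGFR-beta, a common marker of pericytes and other mural cells that cultured fibroblasts also carry, binds B and D chains. Serum holds PDGF released from platelets.

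Thbs4 checked the labels, with 38063, 25754, 36630 and 31675 counts in TSP-4 plasmid libraries A to D, against 2, 11, 8 and 3 counts in empty plasmid libraries A to D. Libraries held 17123735 to 22530947 counts, and mitochondrial genes took 0.857 to 1.00% of them. Cardiac fibroblast markers fixed as a list had all 16 members past the filter, with summed FPKM of 2393 to 3034 in TSP-4 plasmid libraries and 2331 to 3127 in empty plasmid libraries. Markers of other cells were present too. The 14 macrophage markers summed to 214 to 1234 FPKM in TSP-4 plasmid libraries and 232 to 985 FPKM in empty plasmid libraries, while 0 of 9 lymphocyte markers and 1 of 10 cardiomyocyte markers passed the filter.

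All 6 genes were expressed, and Pdgfrb was by far the most abundant of them per length. Pdgfrb averaged 51.3 ± 5.84 FPKM in TSP-4 plasmid libraries, against 48.3 ± 6.13 FPKM in empty plasmid libraries (SD, n = 4 each), above 92.9% of the genes tested. Pdgfd averaged 18.2 ± 4.28 FPKM in TSP-4 plasmid libraries, against 17.4 ± 2.15 FPKM in empty plasmid libraries. Pdgfa averaged 15.4 ± 3.92 FPKM in TSP-4 plasmid libraries, against 14.4 ± 3.37 FPKM in empty plasmid libraries. These ligand genes did not separate in level: Pdgfd was above Pdgfa in 6 of 8 libraries, by a median of 1.22-fold, and their ranges overlapped.

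Pdgfra followed with 6.98 ± 2.68 FPKM in TSP-4 plasmid libraries, against 6.39 ± 2.75 FPKM in empty plasmid libraries (SD, n = 4 each). Pdgfc averaged 2.50 ± 0.498 FPKM in TSP-4 plasmid libraries, against 2.34 ± 0.508 FPKM in empty plasmid libraries. Pdgfb was listed at 2.02 ± 0.746 FPKM in TSP-4 plasmid libraries, against 2.19 ± 0.561 FPKM in empty plasmid libraries. Pdgfc exceeded Pdgfb in 4 of 8 libraries, so these low ligand genes could not be ranked. Between the other neighbours in this order the ranges over the 8 libraries did not overlap. The order of the means was the same after rescaling to the length of the GENCODE M21 coding transcript with the longest coding sequence, with Pdgfd above Pdgfa in 5 of 8 libraries.

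**Figure D1:**
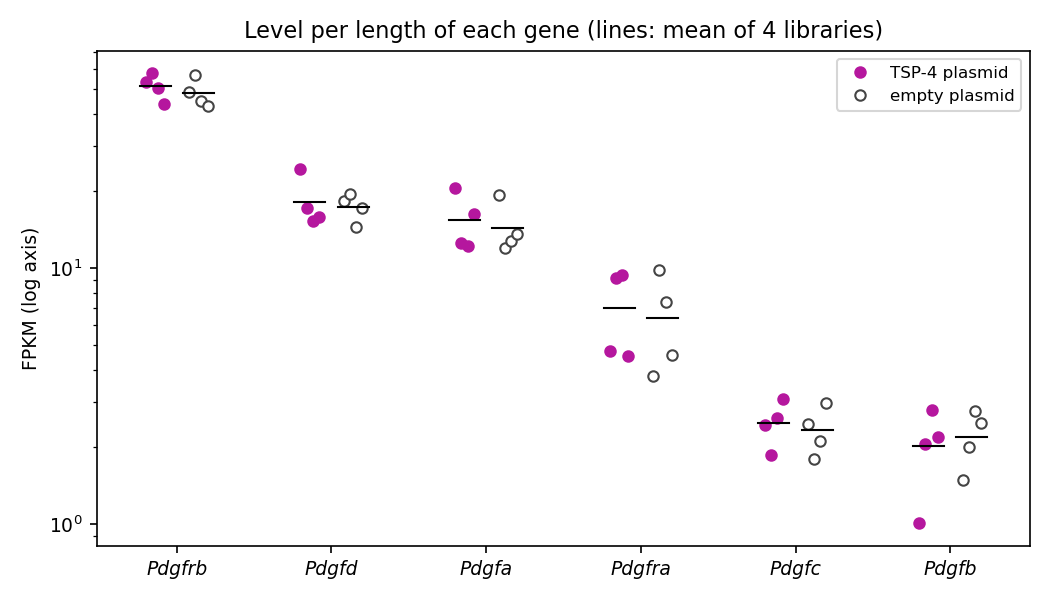
FPKM on a log axis for each gene in each library, ordered by mean level, with TSP-4 plasmid libraries as filled points left of empty plasmid libraries as open points and lines at the mean of 4 libraries. Pdgfrb sits alone at the top with 43.1 to 57.7 FPKM, and Pdgfb at the bottom spans 1.01 to 2.81 FPKM.

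The start regions of 4 members were in the RefSeq promoter table for GRCm38.p6 (Pdgfa, Pdgfc, Pdgfd and Pdgfra). They are shown for the receptor gene that varied most in the data and for both abundant ligand genes. Capitals mark motif matches, searched on both strands from 250 bases before to 50 after each RefSeq start. The motifs were the GC box GGGCGG, the TATA box TATAAA, the CCAAT box CCAAT, the AP-1 motif TGACTCA and the EGR1 motif GCGTGGGCG, the last of which can overlap a GC box. For Pdgfra (chr5:75152001-75152250, plus strand) and Pdgfd (chr9:6168236-6168485, plus strand) the 250 bases before the start are given. For Pdgfa (chr5:138995017-138995046, minus strand) the stretch holds positions -102 to -73 from one of its RefSeq starts.
Pdgfra: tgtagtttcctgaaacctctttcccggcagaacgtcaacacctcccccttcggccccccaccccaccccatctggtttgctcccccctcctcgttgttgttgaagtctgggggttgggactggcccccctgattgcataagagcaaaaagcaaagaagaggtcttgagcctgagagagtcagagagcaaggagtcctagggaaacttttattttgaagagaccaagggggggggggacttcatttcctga
Pdgfd: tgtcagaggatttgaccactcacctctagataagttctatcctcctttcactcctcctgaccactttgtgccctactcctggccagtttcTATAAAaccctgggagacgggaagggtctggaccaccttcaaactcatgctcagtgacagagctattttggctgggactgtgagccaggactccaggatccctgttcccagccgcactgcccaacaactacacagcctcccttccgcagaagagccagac
Pdgfa: gcccagcccCCGCCCtCCGCCCcttccgtc

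The Pdgfa stretch holds 2 GC boxes on the other strand, at -93 and -86. In GENCODE M21 the Pdgfa transcript with the longest coding sequence starts at 138994953. Another coding transcript starts at 138995037, inside this stretch, so the boxes do not lie before every annotated start. The window at the other RefSeq start of Pdgfa held 1 GC box at -60 on the gene's strand. Of all 32851 promoter windows in the table, 35.7% held a GC box. The Pdgfd window held a match to the TATA box motif, at -160 from the RefSeq start, and 13.6% of windows held such a match. That RefSeq start is position 6168486, upstream of the first GENCODE M21 start of Pdgfd at 6168584. Whether the match serves as a promoter element was not tested. The windows of Pdgfra and Pdgfc held none of the 5 motifs, of which CCAAT, AP-1 and EGR1 were in 37.4%, 5.20% and 0.612% of all windows. G and C made up 72.4% of the 250 bases before the Pdgfa start with 2 GC boxes, 54.4% before Pdgfra, 53.6% before Pdgfd and 50.8% before Pdgfc.

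The comparison between plasmids asked whether expression of the PDGF genes differed in fibroblasts that overexpress TSP-4. None of the 6 passed the threshold (adjusted p under 0.05) in edgeR's quasi-likelihood test, where 0.00679% of genes tested did, which was Thbs4 alone. None had an unadjusted p under 0.05 either, as 1.6% of genes tested did. Levels below are CPM, counts relative to the library total scaled with TMM factors, which compare libraries for 1 gene but not genes with each other. In bulk RNA, fewer cells of a type and less RNA per cell cannot be told apart.

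Pdgfa, whose chain forms homodimers that signal through PDGFR-alpha, stood at 63.9, 39.2, 38.0 and 51.0 CPM in TSP-4 plasmid libraries A to D and at 60.3, 37.8, 40.1 and 42.5 CPM in empty plasmid libraries A to D. Letter A was highest in both groups and the groups overlapped. The TSP-4 plasmid over the empty plasmid gave a log2 fold change of 0.09 with an SE of 0.21 (95% interval -0.38 to 0.56), and 3 of 4 letters were higher. Pdgfa (ENSMUSG00000025856, chromosome 5, 138976014 to 138997370, minus strand in GRCm38) overlaps the antisense gene 6330403L08Rik, which held 149 to 299 counts per library. The strand setting of the counting is not given in the sources used here, so reads of the overlap cannot be told apart.

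Pdgfd, a latent ligand of PDGFR-beta, stood at 77.1, 54.3, 48.2 and 50.2 CPM in TSP-4 plasmid libraries A to D and at 57.6, 62.1, 46.1 and 54.5 CPM in empty plasmid libraries A to D. TSP-4 plasmid library A lay above every other library, and the remaining values of the groups interleaved. It gave a log2 fold change of 0.06 with an SE of 0.16 (95% interval -0.30 to 0.42), and 2 of 4 letters were higher. Without TSP-4 plasmid library A it was -0.11. Pdgfd (ENSMUSG00000032006) spans 6168584 to 6378850 of chromosome 9 (plus strand, GRCm38).

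Pdgfc, a latent ligand of PDGFR-alpha, stood at 12.4, 9.58, 13.3 and 15.7 CPM in TSP-4 plasmid libraries A to D and at 12.5, 9.25, 10.8 and 15.2 CPM in empty plasmid libraries A to D. Letter D was highest and letter B lowest in both groups. It gave a log2 fold change of 0.09 with an SE of 0.18 (95% interval -0.33 to 0.50), and 3 of 4 letters were higher. Pdgfc (ENSMUSG00000028019) spans 81036416 to 81214040 of chromosome 3 (plus strand, GRCm38).

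Pdgfb, whose chain binds either receptor and which endothelial cells, platelets and macrophages are known to make, rested on 93 to 229 counts per library. It stood at 4.20, 8.61, 11.7 and 9.16 CPM in TSP-4 plasmid libraries A to D and at 6.20, 8.43, 11.7 and 10.4 CPM in empty plasmid libraries A to D. Letter A was lowest and letter C highest in both groups. A log2 fold change of -0.13 with an SE of 0.31 (95% interval -0.83 to 0.57) was the only one of the 6 below 0, with 2 letters in each direction. Without TSP-4 plasmid library A it was 0.10. Pdgfb (ENSMUSG00000000489) spans 79995874 to 80014977 of chromosome 15 (minus strand, GRCm38).

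The receptor gene Pdgfra stood at 47.7, 92.6, 94.7 and 45.9 CPM in TSP-4 plasmid libraries A to D and at 37.9, 99.7, 74.5 and 46.2 CPM in empty plasmid libraries A to D. Libraries of letters B and C were high and those of A and D low in both groups, so each group held the same wide spread. Its log2 fold change came to 0.12 with an SE of 0.38 (95% interval -0.75 to 0.99), and 2 of 4 letters were higher. On a linear scale the interval ran from 0.596-fold to 1.99-fold, the widest of the 6, and a 1.5-fold difference in either direction lies inside it. Pdgfra (ENSMUSG00000029231) spans 75152292 to 75198215 of chromosome 5 (plus strand, GRCm38).

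Pdgfrb stood at 291, 318, 277 and 241 CPM in TSP-4 plasmid libraries A to D and at 266, 315, 248 and 237 CPM in empty plasmid libraries A to D. It was the only member higher with the TSP-4 plasmid in 4 of 4 letters, by 0.13, 0.02, 0.16 and 0.02 on the log2 scale, and 8.03% of all genes tested were higher in 4 of 4. The groups overlapped, as did those of the other 5 members, while 1.51% of genes tested did not overlap. Its log2 fold change came to 0.08 with an SE of 0.11, and its interval was the narrowest of the 6, from 0.894-fold to 1.25-fold. Pdgfrb (ENSMUSG00000024620) spans 61045150 to 61085061 of chromosome 18 (plus strand, GRCm38).

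**Figure D2:**
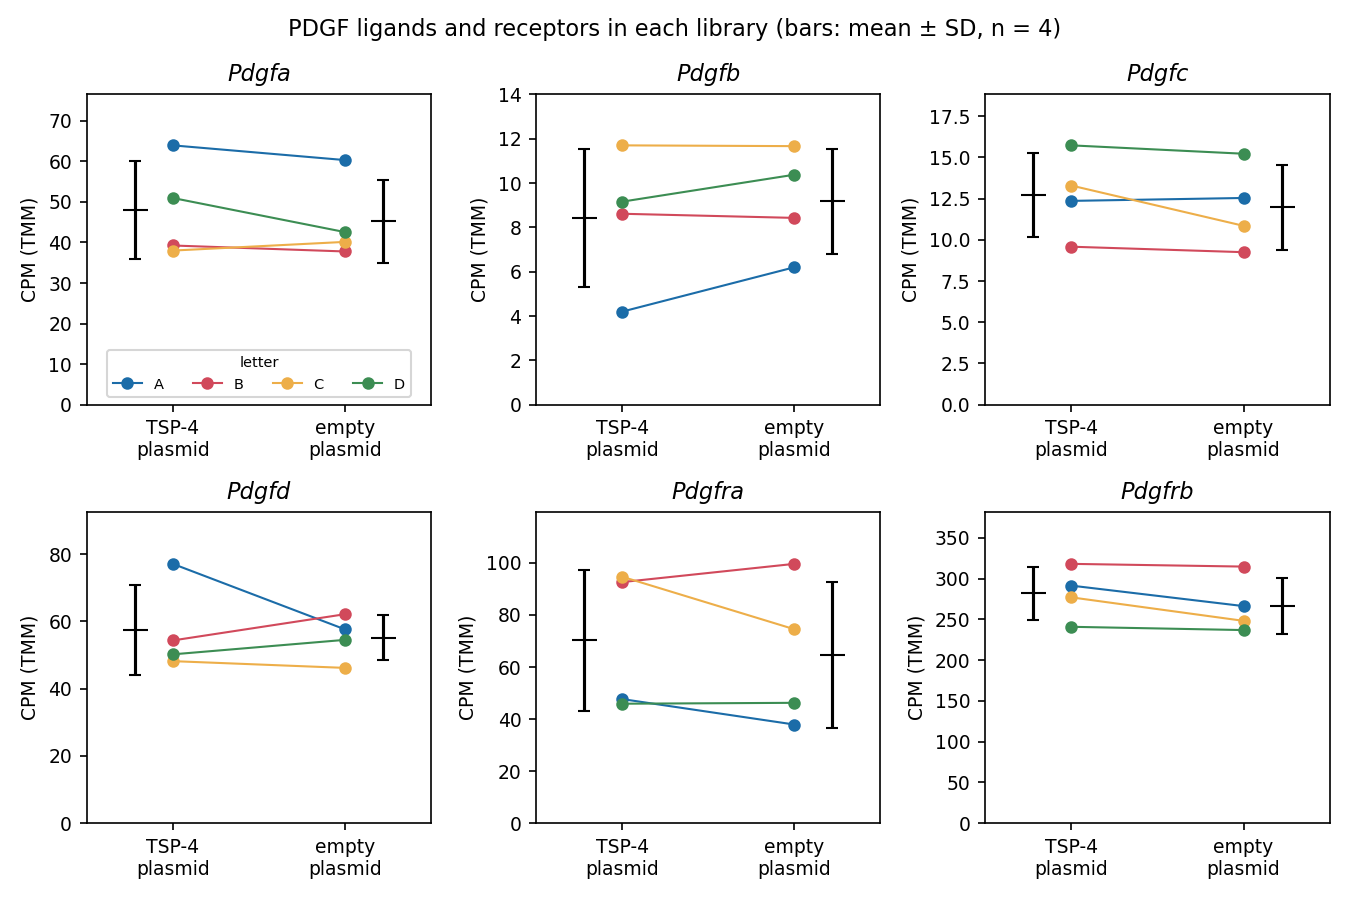
TMM-scaled CPM of each gene per library, with TSP-4 plasmid libraries left of empty plasmid libraries, lines joining libraries of 1 letter and black bars for the mean ± SD of 4 libraries. The order of letters is much the same on both sides, for example letters B and C above A and D for Pdgfra, and the group means lie within each other's SD.

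With the letter as a replicate block, the intervals narrowed and the calls of the 6 genes did not change. Pdgfrb came to a log2 fold change of 0.08 (95% interval 1.4e-05 to 0.16) and an adjusted p of 0.615 in edgeR's test with the block, the smallest of the 6. Its unadjusted p of 0.04997 in that fit put it among the 8.12% of all genes tested with an unadjusted p under 0.05. Pdgfra came to 0.14 (95% interval -0.04 to 0.32, adjusted p = 0.701) and Pdgfb to -0.16 (95% interval -0.40 to 0.09, adjusted p = 0.767). On a linear scale the blocked intervals reached at most 1.25-fold upward (Pdgfra) and 0.759-fold downward (Pdgfb). With the block 0.0136% of genes tested passed.

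**Figure D3:**
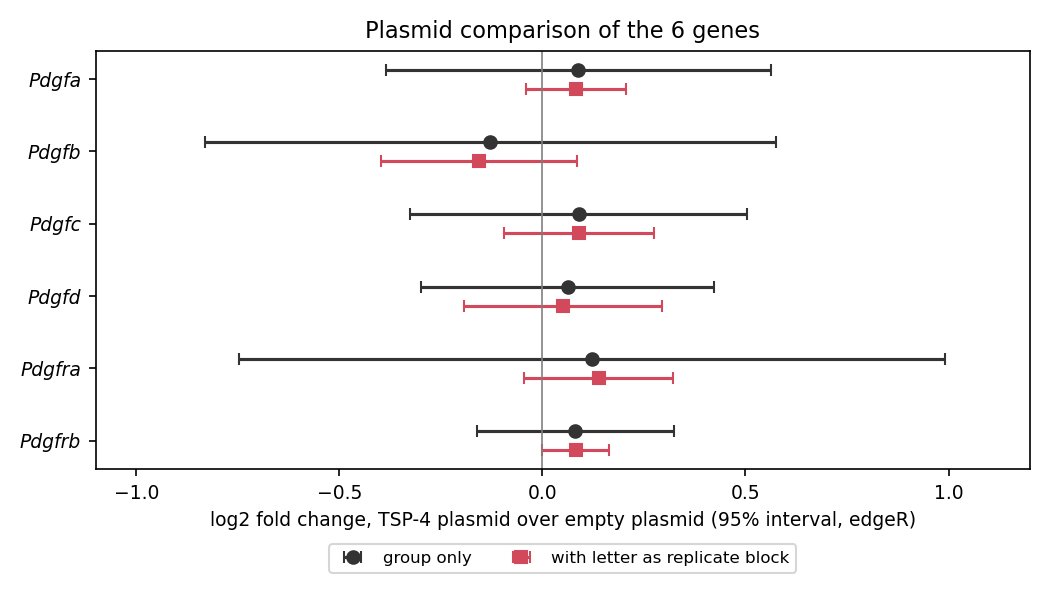
Log2 fold changes of the TSP-4 plasmid over the empty plasmid with 95% intervals from edgeR, without a block (circles) and with the letter as a replicate block (squares). The intervals without a block include 0 for all 6 genes, and the Pdgfra interval shrinks most with the block, to -0.04 to 0.32.

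The letters carried most of the variation of these genes. In edgeR's joint test of the 4 letters, with the plasmid in the model, 5 of 6 members differed between letters, where 28.1% of the genes tested did. Pdgfra had the widest difference in level, with 42.8 CPM in letter A, 96.1 in B, 84.6 in C and 46.1 in D as means of both plasmids. The fitted range from A to B was 1.17 on the log2 scale, or 2.26-fold (adjusted p = 0.000157), wider than that of 92% of the genes tested. Pdgfb spanned 1.17 as well, from 5.20 CPM in letter A to 11.7 CPM in letter C (adjusted p = 0.000518, edgeR). These 2 genes were called with a range of at least 1, which 7.16% of genes tested were. The Pdgfb range was 0.92 without TSP-4 plasmid library A, and on log2(FPKM + 1) it was 0.76 and that of Pdgfra 0.999, each below 1 and still past the test.

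The other members spanned less. Pdgfc ranged over 0.72 on the log2 scale, from 9.42 CPM in B to 15.5 CPM in D (adjusted p = 0.00409, edgeR). Pdgfa ranged over 0.69, from 38.5 CPM in B to 62.1 CPM in A (adjusted p = 4.0e-05). Pdgfrb ranged over 0.41, from 239 CPM in D to 316 CPM in B, a narrow span on high counts (adjusted p = 0.000418). Pdgfd ranged over 0.51, from 47.2 CPM in C to 67.3 CPM in A, and did not pass in edgeR (adjusted p = 0.12). Its libraries of letter A lay apart from each other, with 77.1 CPM in the TSP-4 plasmid library and 57.6 CPM in the empty plasmid library. It passed in DESeq2 (adjusted p = 0.00692) and in limma voom (adjusted p = 0.0356), and without TSP-4 plasmid library A its range was 0.31 (adjusted p = 0.0146, edgeR). The other 5 kept their calls under all 16 alternatives tried.

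The members did not share 1 order of letters. Pdgfa and Pdgfd were highest in A, Pdgfra and Pdgfrb in B, Pdgfb in C and Pdgfc in D. Pdgfa and Pdgfra, a ligand gene and a receptor gene that lie on the same chromosome, stood opposite: letter A had the highest Pdgfa (0.44 above the mean of the letters on the log2 scale) and the lowest Pdgfra (-0.57). The fit measures each letter with 2 libraries, and whether the plasmid difference varied by letter could not be tested with 1 library per letter and plasmid.

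**Figure D4:**
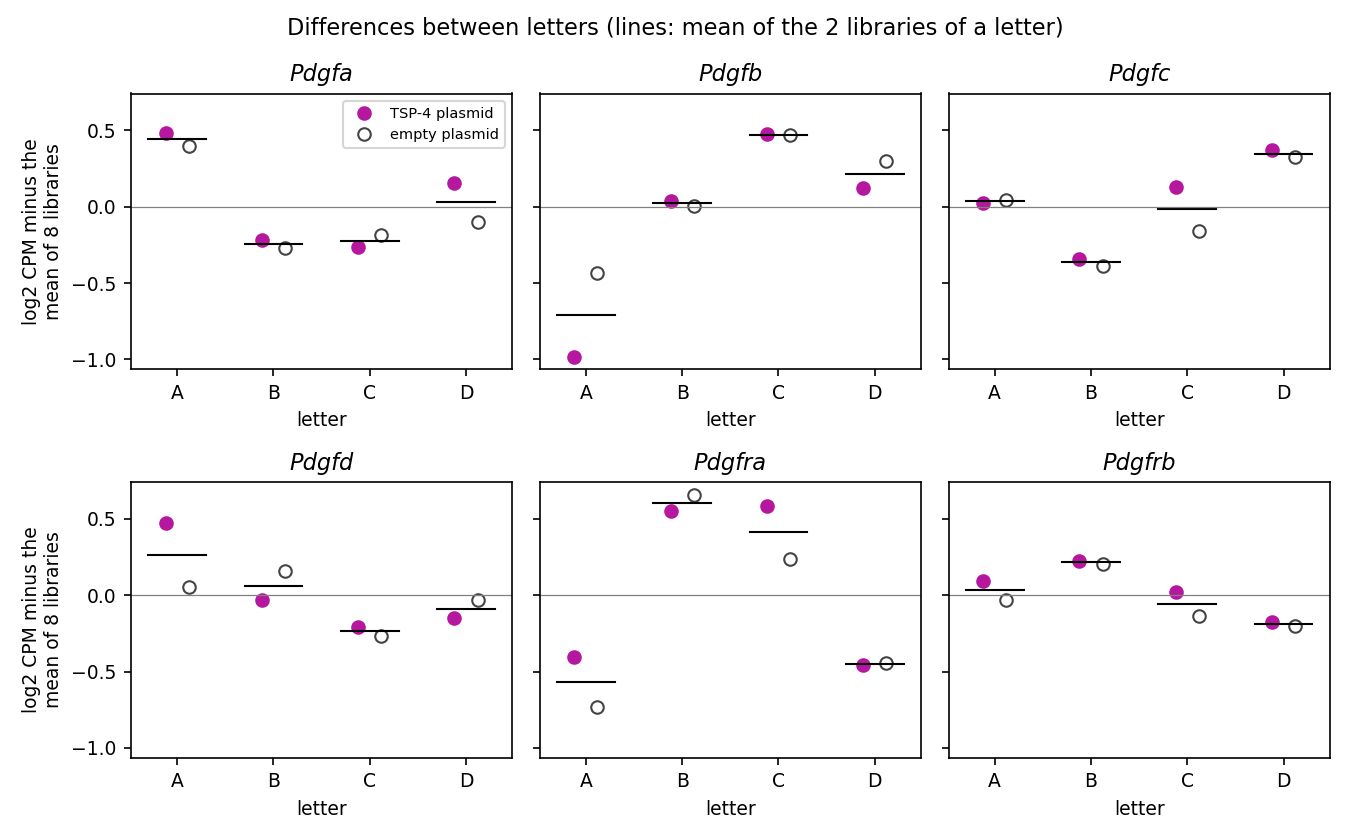
Log2 CPM of each gene minus its mean over the 8 libraries, by letter, with filled points for the TSP-4 plasmid left of open points for the empty plasmid and lines at the mean of both. Libraries of 1 letter lie close together for most genes, apart from Pdgfb and Pdgfd in letter A, and Pdgfra in B and C lies well above A and D.

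Cell type markers varied by letter too. Of the cardiac fibroblast markers, 12 of 16 passed the letter test, against 28.1% of genes tested, and markers of some other cell types passed as well. Summed macrophage markers averaged 223 FPKM in letter A, 629 in B, 1110 in C and 489 in D, and 13 of 14 of these markers passed the letter test, where 28.1% of genes tested did. The test was passed by 5 of 7 epicardial and mesothelial markers, 5 of 11 endothelial, 3 of 9 pericyte and smooth muscle, 1 of 4 megakaryocyte and platelet, 1 of 4 Schwann cell and 1 of 1 cardiomyocyte markers that passed the filter, and for several of these lists that share is near the 28.1%. Letter A was lowest for the summed macrophage markers, for Pdgfb and for Pdgfra. Letter C was highest for the summed macrophage markers and for Pdgfb. The orders differed otherwise. The macrophage sum was higher in B than in D, whereas Pdgfb was lower in B (8.52 CPM) than in D (9.77 CPM), and Pdgfra was highest in B. The macrophage marker Lyz2 averaged 397 ± 269 FPKM in TSP-4 plasmid libraries, against 374 ± 208 FPKM in empty plasmid libraries (SD, n = 4 each). Megakaryocyte and platelet markers summed to 9.72 FPKM in A, 22.5 in B, 26.3 in C and 15.5 in D, nearly all from Pf4. That is the order of letters of the macrophage sum. Of these 8 markers 4 passed the filter, 3 had a mean under 0.1 FPKM, and Gp1bb had 0 counts in all libraries. Whether platelet cells were present was not tested.

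Pericyte and smooth muscle markers, for which PDGFR-beta is a known receptor, summed to 926 FPKM in letter A, 471 in B, 536 in C and 464 in D, with 485 to 935 FPKM in TSP-4 plasmid libraries and 443 to 917 FPKM in empty plasmid libraries. Acta2, a contractile actin that activated fibroblasts also express, made up most of that sum at 596 ± 215 FPKM in TSP-4 plasmid libraries, against 572 ± 221 FPKM in empty plasmid libraries (SD, n = 4 each). The pericyte marker Notch3 averaged 4.03 ± 1.146 FPKM in TSP-4 plasmid libraries, against 3.79 ± 1.56 FPKM in empty plasmid libraries, 9 of the 13 markers passed the filter, and Vtn had 0 counts in all libraries. Endothelial markers summed to 11.7 FPKM in B and 16.3 in A. Schwann cell markers summed to 3.31 FPKM in C and 5.66 in A, and cardiomyocyte markers to 1.89 FPKM in B and 2.62 in A. Epicardial and mesothelial markers summed to 319 FPKM in A, 159 in B, 191 in C and 274 in D, the letters with low Pdgfra being the ones with high sums. Summed cardiac fibroblast markers were 2851 FPKM in A, 3080 in B, 2598 in C and 2362 in D, the order of letters seen for Pdgfrb. This sum is carried by abundant genes such as Vim and Col1a1, which stood 0.08 and 0.16 above the mean of the letters in A on the log2 scale. Other members of the list, chosen here after their values were seen, stood well below that mean in letter A. These were Dcn at -0.94, Mgp at -1.02, Dpt at -0.91, Lum at -0.79 and Meox1 at -0.79. Further members stood above it, with Tbx20 at 0.29, Thy1 at 0.28, Col3a1 at 0.19, Gata4 at 0.15, Col1a2 at 0.06 and Gsn at 0.05. Postn, Tcf21 and Ddr2 stood at -0.25, -0.07 and -0.00095, so the list had no common direction in letter A. Letter A also held the highest library total with either plasmid. The part of these differences in the levels of the PDGF genes was not tested.

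The balance among ligands and between receptors was set out per library, as a description without a test. Pdgfd made up 47.6 ± 4.03% of the summed ligand FPKM in TSP-4 plasmid libraries, against 47.9 ± 5.08% in empty plasmid libraries (SD, n = 4 each). Pdgfa made up 40.1 ± 3.37% in TSP-4 plasmid libraries and 39.4 ± 5.30% in empty plasmid libraries. Pdgfc and Pdgfb shared the remainder, with Pdgfb ranging from 2.08% in TSP-4 plasmid library A to 8.64% in empty plasmid library C. Pdgfrb exceeded Pdgfra in every library, 11.2, 6.28, 5.35 and 9.60-fold in TSP-4 plasmid libraries A to D and 12.9, 5.78, 6.09 and 9.37-fold in empty plasmid libraries A to D. Letters A and D had the high ratios with either plasmid.

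The difference between plasmids in the log2 ratio of Pdgfra to Pdgfrb was 0.06, against an SD of 0.50 in TSP-4 plasmid libraries and 0.55 in empty plasmid libraries. Leaving out single libraries moved it between -0.17 and 0.23, with the sign turned in 4 of 8 cases (without TSP-4 plasmid B or C, or empty plasmid A or D). The difference in the Pdgfa share, 0.643 percentage points, likewise moved between -1.17 and 3.02. These levels depend on the gene length used. The deposited length of Pdgfra is 10024 bases, and the coding transcript with the longest coding sequence has 6834. With transcript lengths Pdgfrb exceeded Pdgfra 3.69 to 8.85-fold.

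**Figure D5:**
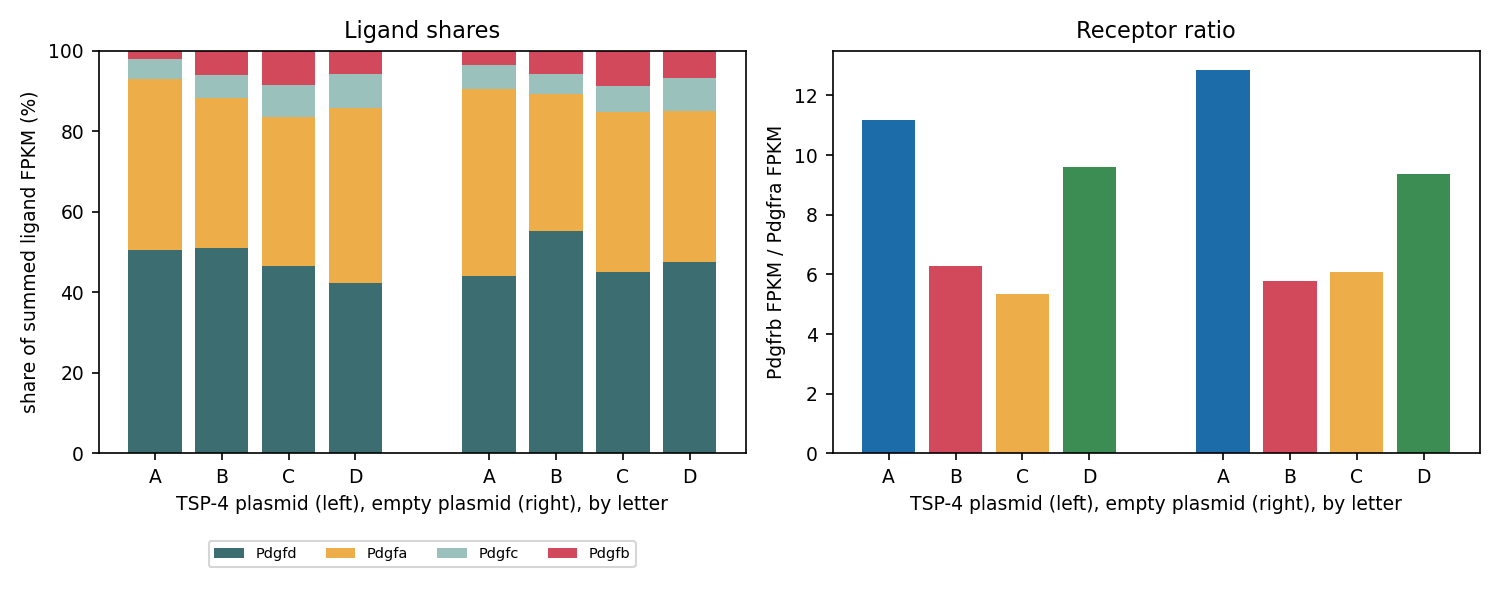
Left, the share of each ligand gene in the summed ligand FPKM of a library, with Pdgfd and Pdgfa holding most of it in all 8. Right, the ratio of Pdgfrb to Pdgfra FPKM, coloured by letter, with TSP-4 plasmid libraries left of empty plasmid libraries, from 5.35 to 12.9.

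The genes whose log2 CPM followed each member most closely over the 8 libraries were taken among 10389 other tested genes with a mean of at least 5 CPM. The libraries pair by letter, so the 8 values of a gene are not independent and Pearson's r is tied to the order of 4 letters. Not all genes named here passed the letter test. Susd6 did (adjusted p = 9.3e-06, edgeR), whereas Cisd2 (0.296), Zfp747 (0.361) and Snx25 (0.151) did not. Taking the highest r among so many genes by itself gives high values. Pdgfra was followed most closely by Susd6 (r = 0.998), Gbp9 (0.997) and C3 (0.994), the central complement component. Pdgfrb was followed by Abca8b (0.995), Gas1 (0.982) and Fbn1 (0.980), the gene of the microfibril protein fibrillin-1. Pdgfa was followed by Gadd45g (0.992), Ddb1 (0.989) and Vps53 (0.984), and Pdgfb by the chemokine gene Cxcl3 (0.990), Abcc1 (0.989) and Cisd2 (0.988). Values were lower for Pdgfc, with Dusp3 (0.969), Zfp747 (0.967) and Thumpd1 (0.962), and for Pdgfd, with Smpd1 (0.964), Snx25 (0.961) and Pcdh18 (0.940).

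Other genes of the pathway were read from lists, and none of their members passed between plasmids in either direction. The median log2 fold change over all genes tested was -0.00. Proteases that activate PDGF ligands, listed with inhibitors, had a median of 0.03 (6 of 9 above 0). The proprotein convertase Pcsk5 averaged 2.74 ± 0.813 FPKM in TSP-4 plasmid libraries, against 2.28 ± 0.412 FPKM in empty plasmid libraries (SD, n = 4 each). Pcsk6, another convertase, averaged 39.5 ± 6.02 FPKM in TSP-4 plasmid libraries, against 37.9 ± 2.97 FPKM in empty plasmid libraries. St14, the gene of matriptase, which can cut PDGF-D, was at 1.01 ± 0.162 FPKM in TSP-4 plasmid libraries, against 1.13 ± 0.182 FPKM in empty plasmid libraries.

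Binding partners and co-receptors of PDGF had a median of 0.00 (7 of 13 above 0). Sparc, whose product binds PDGF-B, averaged 1251 ± 142 FPKM in TSP-4 plasmid libraries, against 1169 ± 98.2 FPKM in empty plasmid libraries (SD, n = 4 each). Cspg4, the gene of the NG2 proteoglycan of pericytes, was at 0.801 ± 0.168 FPKM in TSP-4 plasmid libraries, against 0.985 ± 0.192 FPKM in empty plasmid libraries. The integrin gene Itgb3 was at 4.09 ± 0.927 FPKM in TSP-4 plasmid libraries, against 4.78 ± 0.584 FPKM in empty plasmid libraries. Thbs1 was at 1004 ± 133 FPKM in TSP-4 plasmid libraries, against 1000.2 ± 137 FPKM in empty plasmid libraries. In this list 11 of 13 genes passed the letter test, against 28.1% of all genes tested. This was not particular to the list, as every other pathway list lay above that share too. They ran from 17 of 37 adaptors and effectors (45.9%) to 20 of 24 transcripts classically induced by PDGF (83.3%).

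Adaptors and effectors of the receptors had a median of -0.00 (16 of 37 above 0), with log2 fold changes from -0.15 to 0.20. The largest was that of the docking adaptor Gab1, at 5.96 ± 0.906 FPKM in TSP-4 plasmid libraries, against 5.18 ± 0.574 FPKM in empty plasmid libraries (SD, n = 4 each). The lowest was that of Rasa1, the RAS GTPase-activating protein that binds activated PDGFR-beta, at 27.0 ± 2.13 FPKM in TSP-4 plasmid libraries, against 29.8 ± 3.08 FPKM in empty plasmid libraries. The exchange factor Sos1 was at 6.63 ± 0.570 FPKM in TSP-4 plasmid libraries, against 6.19 ± 0.237 FPKM in empty plasmid libraries. The kinases Akt1 (100.2 ± 10.5 FPKM in TSP-4 plasmid libraries, 106 ± 8.48 FPKM in empty plasmid libraries) and Mapk3 (96.0 ± 5.35 FPKM in TSP-4 plasmid libraries, 92.9 ± 7.77 FPKM in empty plasmid libraries) were the most abundant.

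Attenuators of the receptors had a median of -0.03 (5 of 19 above 0). The phosphatase gene Acp1 averaged 15.1 ± 2.17 FPKM in TSP-4 plasmid libraries, against 16.7 ± 0.877 FPKM in empty plasmid libraries (SD, n = 4 each). The inhibitor of RAS signalling Spred2 was at 12.5 ± 1.07 FPKM in TSP-4 plasmid libraries, against 13.4 ± 0.771 FPKM in empty plasmid libraries, and the adaptor Sh2b3 at 15.2 ± 0.983 FPKM in TSP-4 plasmid libraries, against 15.8 ± 0.929 FPKM in empty plasmid libraries. Dusp4, a MAP kinase phosphatase, was at 70.03 ± 12.9 FPKM in TSP-4 plasmid libraries, against 69.96 ± 13.1 FPKM in empty plasmid libraries. Usp8, a deubiquitinase of endosomal sorting, was at 28.3 ± 0.846 FPKM in TSP-4 plasmid libraries, against 28.9 ± 0.667 FPKM in empty plasmid libraries.

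Transcripts classically induced by PDGF, a list that shares many members with the immediate-early genes, had a median of -0.17, with 3 of 24 above 0. Fos, a subunit of AP-1, averaged 3.64 ± 0.401 FPKM in TSP-4 plasmid libraries, against 4.60 ± 0.465 FPKM in empty plasmid libraries (SD, n = 4 each). Fosb was at 0.914 ± 0.336 FPKM in TSP-4 plasmid libraries, against 1.23 ± 0.220 FPKM in empty plasmid libraries, and Egr2 at 2.27 ± 0.779 FPKM in TSP-4 plasmid libraries, against 2.99 ± 0.351 FPKM in empty plasmid libraries. The members with the highest FPKM were Timp1 and Ccl2. Ccl2, the monocyte chemokine first cloned as a PDGF-induced gene, had a log2 fold change of -0.04 (95% interval -0.72 to 0.63), and Timp1, an inhibitor of matrix metalloproteases, one of -0.02. With the replicate block 13 of 24 had an unadjusted p under 0.05 (edgeR), against 8.12% of all genes tested. After adjustment over all genes 0 passed. Most of the 13 were below 0 in the fit without the block, and some were above 0. Other lists lay above that share too, among them 3 of 9 proteases and inhibitors and 6 of 20 transcription factors. The last list shares Egr1 and Ets1 with this one. Adaptors and effectors (3 of 37) were near the share and binding partners (1 of 13) below it.

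Transcription factors reported at promoters of PDGF and PDGF receptor genes had a median of -0.03 (6 of 20 above 0). Egr1 averaged 16.2 ± 3.02 FPKM in TSP-4 plasmid libraries, against 18.9 ± 2.39 FPKM in empty plasmid libraries (SD, n = 4 each), and Ets1 14.3 ± 2.17 FPKM in TSP-4 plasmid libraries, against 16.4 ± 2.995 FPKM in empty plasmid libraries. Nfya, a subunit of the CCAAT-binding factor, was at 4.13 ± 0.499 FPKM in TSP-4 plasmid libraries, against 4.48 ± 0.296 FPKM in empty plasmid libraries. Cebpb was at 106 ± 25.5 FPKM in TSP-4 plasmid libraries, against 119 ± 23.7 FPKM in empty plasmid libraries. Tcf21, a factor of cardiac fibroblast identity, was at 57.8 ± 16.5 FPKM in TSP-4 plasmid libraries, against 51.8 ± 18.4 FPKM in empty plasmid libraries. Like both receptor genes it was highest in letter B, with a range over letters of 1.06 on the log2 scale (adjusted p = 9.1e-05, edgeR). Its other letters were unlike those of Pdgfra. Its effects in A to D were -0.07, 0.58, -0.03 and -0.48, against -0.57, 0.61, 0.41 and -0.45 for Pdgfra. In this list 13 of 20 genes passed the letter test, against 28.1% of all genes tested.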

How the data were processed

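Per the labels' protocols, poly(A) RNA of 8 libraries was prepared by NEBNext Ultra chemistry and sequenced. Tools named in the submitters' processing notes are CASAVA, TopHat2 (2.0), Cufflinks (2.1.1) and HTSeq (0.6.1), and the builds are mm10 and GRCm38.p6; no source used here ties a tool to a value or gives the strand setting. The deposited counts are whole numbers for each gene. The deposited FPKM values equal count over gene length times a constant for each library, whose implied total is 0.982 to 1.03 times the summed counts, so FPKM carries a library scaling by the authors. Gene positions equal GENCODE M21 for 98.3% of matched genes and all 6 members.

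From the counts, edgeR 4.0.16 (quasi-likelihood, robust, TMM factors, minimum count 10, R 4.3.3) was fitted over 14723 genes with plasmid as the only term. A second fit with plasmid and letter tested the letters jointly. Calls are at a Benjamini-Hochberg adjusted p of 0.05 over all genes. Log2 CPM used a prior count of 2. The tests were checked on simulated counts, where 8.11% of calls were false in the plasmid test and 11.6% in the letter test, above the nominal 5%. The simulated counts for the plasmid test held no letter differences, unlike the data. Its share of false calls may therefore not hold for the plasmid test on the data. Alternatives were DESeq2 1.42.0, limma 3.58.1 (voom, and log2(FPKM + 1) or log2(FPKM + 0.1)), other scaling and filters, a replicate block and leaving out libraries. Intervals cover counting error and the spread between libraries.

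Libraries of the same letter deviated together from their group means (Pearson's r over genes 0.508 to 0.651 for all 4 pairs, -0.57 to 0.323 between letters), so the letters were taken to pair the libraries. The labels state no such pairing. No libraries of a group agreed within sampling noise (mean chi-square per gene at least 10.3).

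Members, lists and tests were chosen with earlier results of these data known. Named genes are the 6 members, Thbs4, in each pathway list the 3 genes with the smallest p and the 2 with the highest FPKM, 2 per marker list of which the text names some, and the 3 genes that most resemble each member. Lyz2, Acta2, Notch3 and Pf4 stand for their lists by this rule; 6330403L08Rik, Gp1bb and Vtn were named after their values were seen. A gene that this rule names is not reported here.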

Additional observations from a re-analysis of the deposited data

How the results depend on the processing

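No PDGF gene was called between plasmids under any of 23 alternatives each. Among these, DESeq2 with the replicate block gave no adjusted p for Pdgfb and Pdgfc. Their directions were less firm. With single libraries left out, the log2 fold change ranged from -0.081 to 0.26 for Pdgfa, -0.32 to 0.10 for Pdgfb, -0.028 to 0.23 for Pdgfc, -0.11 to 0.14 for Pdgfd and -0.065 to 0.41 for Pdgfra, and crossed 0 for each. This came without TSP-4 plasmid library A (Pdgfa, Pdgfb, Pdgfd), without TSP-4 plasmid library D or empty plasmid library B (Pdgfc), without empty plasmid library C (Pdgfb, Pdgfd), and without any of TSP-4 plasmid B or C or empty plasmid A or D (Pdgfra). Leaving out 1 library unbalances the letters. Pdgfd also changed direction with the replicate block without letter A (-0.084). Pdgfrb stayed above 0 in all 23, from 0.02 to 0.17.

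With the replicate block the count of genes called between plasmids was 2, 10 with DESeq2 and 1 with limma voom, against 1 without it. With the block it was 5 without letter A, 4 without B, 2 without C and 1 without D. In the edgeR fit over all 8 libraries the block changed no call of a PDGF gene or a listed gene. Listed genes were not read from the other fits with the block. Between letters, DESeq2 called 2716 genes and edgeR 4134. The Pdgfd letter range passed with DESeq2 (0.52), limma voom (0.50) and no filter (0.54), and lay between 0.31 and 0.75 with single libraries left out, passing in 4 of those 8 fits. Transcript lengths, an alternative added after seeing the data, moved the mean log2 ratio of Pdgfra to Pdgfrb to -2.45 against -2.98, and the mean Pdgfa share of ligand FPKM to 44.1% against 39.7%. Depth limits Pdgfb most.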

Other observations

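Related receptor kinases and the VEGF family, which shares the cystine-knot fold with PDGF, were also read from a list, and 0 of 14 tested genes passed between plasmids (median log2 fold change 0.04, 7 above 0). Csf1, the macrophage growth factor, was the most abundant at 752 ± 28.0 FPKM in TSP-4 plasmid libraries, against 756 ± 26.6 FPKM in empty plasmid libraries (SD, n = 4 each), and did not pass the letter test, with a range of 0.12 on the log2 scale. Its receptor gene Csf1r, a macrophage marker named after its values were seen, spanned 1.59 between letters (adjusted p = 0.0109, edgeR), lowest in A and highest in C. Vegfa averaged 46.1 ± 4.24 FPKM in TSP-4 plasmid libraries, against 47.8 ± 2.85 FPKM in empty plasmid libraries. Vegfb was at 21.01 ± 2.90 FPKM in TSP-4 plasmid libraries, against 19.6 ± 1.497 FPKM in empty plasmid libraries, and Flt3l at 0.853 ± 0.0487 FPKM in TSP-4 plasmid libraries, against 0.771 ± 0.164 FPKM in empty plasmid libraries. Vegfd stood at 39.5 ± 16.2 FPKM in TSP-4 plasmid libraries, against 31.0 ± 13.1 FPKM in empty plasmid libraries, with a letter range of 1.42 that did not pass (adjusted p = 0.0875, edgeR).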
